A study of Glycine max with 4 samples.

Results

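Genomic DNA of soybean plants derived from fast neutron irradiation was compared by array comparative genomic hybridization (aCGH) with DNA of the irradiated line, M92-220, and the values described here are those of 1.5 Mb of chromosome 20. In coordinates of the reference sequence Glyma.Wm82.a2.v1, from which the probes were designed, its first probe starts at 36500588 and its last ends at 37999735. It holds 2549 of the 951615 probes of the array. The members were chosen by their coordinates, and the interval itself was selected on measured values, namely the log2 ratios of plant 39, which stood both above and below those of the other plants there. The differences between plant 39 and the others are therefore given as a description, with no test.

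The arrays carried 1 plant each. Plants 15 and 39 belonged to CM7F040P05 (P05) and plants 35 and 45 to CM7F040P06 (P06), the lineage of the high-sucrose and low-oil mutant FN0176450. Both lines come from irradiated M92-220 and were harvested in bulk for several generations after the mutant families were set up, and the reference is the line without irradiation. Leaf DNA of the plant was labeled with Cy3 and leaf DNA of M92-220 (M92-220-Long in the labels) with Cy5, with 500 ng in each labeling reaction. Each line is represented by 2 plants, and no array had the dyes swapped.

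Fast neutrons break chromosomes and leave deletions, duplications and translocations. In aCGH a deletion lowers the ratio of plant to reference at neighboring probes, because the plant has nothing to hybridize there while the reference does. A probe is a short piece of the sequenced cultivar Williams 82, so it also responds to natural differences between cultivated soybeans. Where a plant carries a haplotype, that is a linked stretch of sequence from another parent, probes that match the plant better than the reference give a higher ratio and probes that match it worse give a lower one. Which kind of change lay behind the ratios of plant 39 was not tested.

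The probed positions of the stretch had a median length of 60 bp, and neighboring positions started a median of 439 bp apart, against 474 bp over the whole array. The widest spacing was 6306 bp. All 4 arrays gave a value at 2546 of the 2549 positions. Over the whole array, the median signal of a spot was 1034 to 1054 in either dye. The array of plant 39 stood apart in a technical respect. At 5859 of its probes the Cy5 signal of M92-220 was at least 3 lower on the log2 scale than on each other array, and at 4967 of them Cy3 was reduced as far. Such dropouts numbered 111 on the array of plant 45 and 0 on those of plants 15 and 35. Of these probes of the array of plant 39, 11 lay in the stretch.

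Along most of the stretch the 4 plants followed each other closely around 0. Plant 39 departed from the other plants at scattered positions in both directions. A position was counted as shifted when the log2 ratio of a plant differed by at least 1, in the same direction, from that of each of the other 3 plants. Plant 39 was higher at 67 of the 2546 positions, where the same rule counted 0.124% of all probes of the array, and lower at 20, against 0.0752% of all probes. At a difference of at least 2 there were 36 higher positions (0.0604% of all probes) and 11 lower ones (0.0364%). With normexp background correction in place of the processed signals, 66 positions were higher and 12 lower. These counts restate the choice of the interval and nothing further is read from them. The nearest positions inside the threshold differed by 1.001 and 1.036 upward and by -1.07 and -1.29 downward from the nearest other plant, and the nearest ones outside it by 0.998 and 0.995 upward and by -0.98 and -0.91 downward.

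The other plants rarely stood alone. Plant 15, also of P05, was higher at 1 position (0.0178% of all probes) and lower at 0 (0.0127%). Plant 35 of P06 was higher at 0 (0.0104%) and lower at 0 (0.0192%), and plant 45 of P06 was higher at 0 (0.0139%) and lower at 2 (0.0316%). The line P05 was thus represented by 1 plant with the mixed pattern and 1 plant without it.

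**Figure D1:**
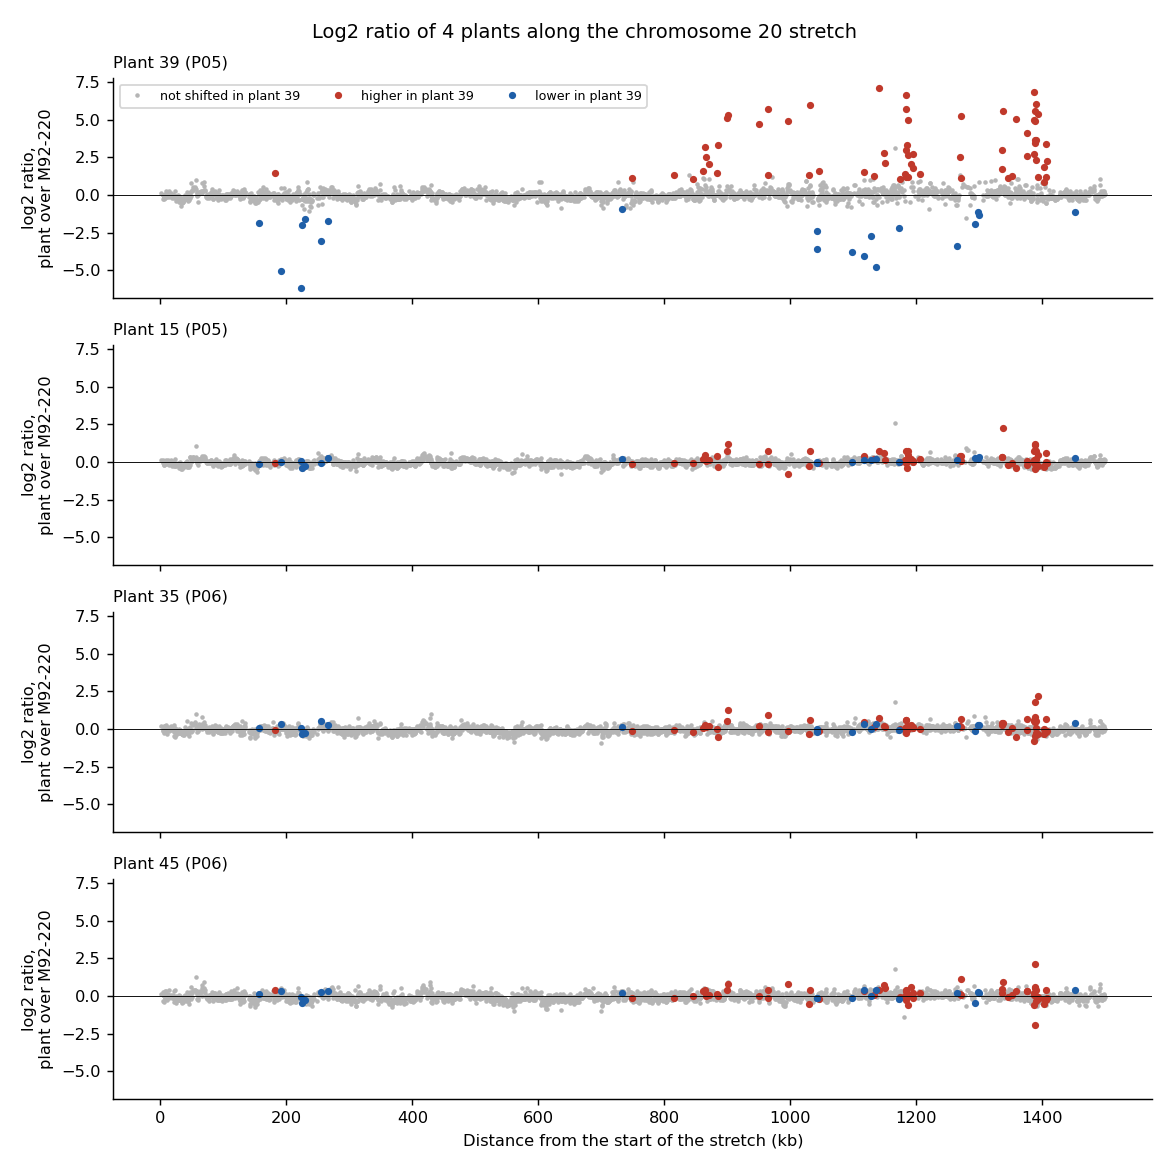
Log2 ratio of plant over M92-220 (vertical axis) against the distance from the start of the stretch in kb (horizontal axis), with 1 panel per plant and 1 point per probed position. Red and blue points mark the 67 positions higher and the 20 positions lower in plant 39, and plants 15, 35 and 45 all lie within 1 of 0 at 60 of the 67 and at all 20.

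The spread of the ratios needs no threshold, but it is made of the same values of plant 39 that chose the interval and restates that choice. The SD of plant 39 minus the median of the other 3 plants was 0.637 over the positions of the stretch. It was 0.149 over the rest of chromosome 20 and 0.267 over all probes of the array outside the stretch. For plants 15, 35 and 45, each against the median of the other plants, it was 0.153, 0.137 and 0.159 in the stretch. The middle of the distribution changed little: the interquartile range of this difference for plant 39 was 0.201 in the stretch and 0.160 over the rest of the chromosome. The tails changed more, and unequally. The 5th percentile was -0.27 in the stretch and -0.21 outside it, while the 95th percentile was 0.57 in the stretch and 0.21 outside. The 1st percentile was -0.81 and the 99th was 2.80, against -0.35 and 0.37 over the rest of the chromosome. The mean log2 ratio over the stretch stayed near 0 in every plant, with 0.059 in plant 39, -0.028 in plant 15, -0.035 in plant 35 and -0.035 in plant 45. A mean over the interval therefore hides most of what its single positions showed.

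The array was also cut into 9504 consecutive windows of 100 probes, and the windows were ordered by the SD of plant 39 minus the median of the other plants. Of the 24 windows inside the stretch, 12 were among the 100 with the widest spread. The widest of these, from 37846743 to 37897458, had an SD of 1.53 and rank 26, against a median SD of 0.131 over all windows. In the same window the SD was 0.270 for plant 15, 0.257 for plant 35 and 0.329 for plant 45. For plants 15, 35 and 45 the number of windows of the stretch among the widest 100 was 1, 0 and 1. The ranks of plant 39 restate the choice of the interval.

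The shifted positions were divided into a pair of clusters at the widest gap between them. The first, from 36656550 to 36766980, spanned 110 kb with 181 positions, of which 7 were lower and 1 higher in plant 39. Then 812 positions over 465 kb held none, and there the difference of plant 39 from the median of the others lay between -0.65 and 0.72. In that gap the SD of the log2 ratio was 0.219 in plant 39 and 0.192, 0.209 and 0.253 in plants 15, 35 and 45. The second cluster, from 37231986 to 37951243, spanned 719 kb with 1200 positions, of which 66 were higher (5.50%) and 13 lower (1.08%). The directions were thus unevenly divided, with lower positions leading in the first cluster and higher positions in the second. The clusters began and ended at shifted positions. The gap, the 264 positions before the first cluster and the 89 after the second therefore held 0 shifted ones by definition. Within 5 Mb on either side of the stretch 9 of 14591 positions were higher and 5 lower.

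Of the 30 consecutive blocks of 50 kb, 14 held a higher position, 10 a lower one and 6 both. The most crowded blocks had 16 and 15 higher positions and began at 37850000 and 37650000. The largest number of lower positions in a block was 4, from 37750000. In order along the chromosome, the direction changed 18 times over 86 successive pairs of shifted positions. The closest pair of opposite direction started 801 bp apart.

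**Figure D2:**
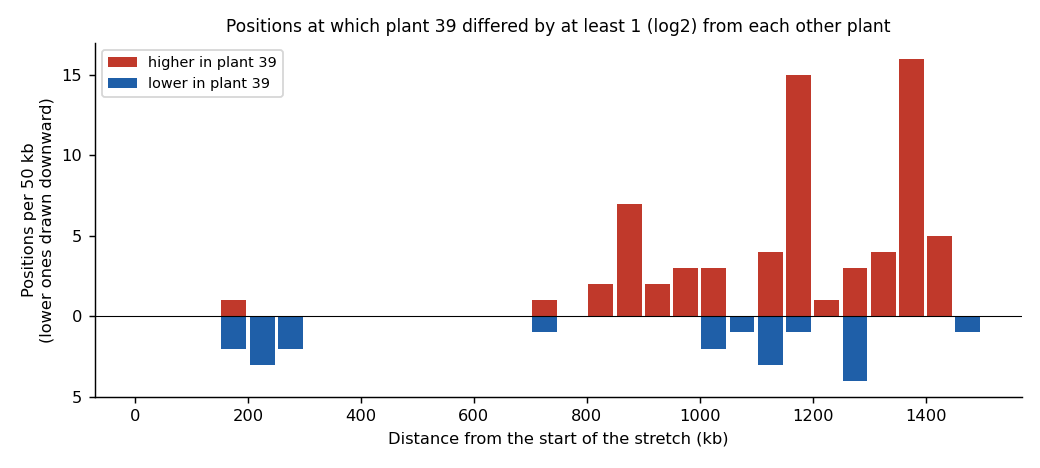
Number of positions shifted in plant 39 per 50 kb (vertical axis, lower positions drawn downward) against the distance from the start of the stretch in kb. Lower positions lead in the first cluster, no position is shifted in the gap that follows, and higher positions reach 16 in a block of the second cluster.

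Shifted positions were interspersed with unshifted ones. Joining shifted positions that had at most 5 unshifted ones between them, and keeping runs with at least 3, gave 8 runs, all in the second cluster, from 0.868 to 13.25 kb long, with 45 of the 87 shifted positions. Of these runs, 6 held only higher positions, 1 held only lower ones and 1 held both. The longest, from 37681952 to 37695201, had 13 higher positions among 19, and its mean log2 ratio was 2.06 in plant 39, against 0.12, 0.12 and 0.041 in plants 15, 35 and 45. The next, from 37886008 to 37893406, had 12 higher positions among 18 and a mean of 2.84, against 0.16, 0.19 and -0.089. All 3 positions of the run from 37835902 to 37836769 were higher, with a mean of 3.44, against 0.99, 0.35 and 0.53 in plants 15, 35 and 45. At its last position, Gm_CUST_P13261133, plant 15 had a ratio of 2.24 with neither dye well above background. All 3 of the run from 37769728 to 37770743 were also higher, with a mean of 2.97, against 0.29, 0.33 and 0.45. The other runs of higher positions, from 37361477 to 37365956 and from 37902203 to 37906854, had 3 of 8 and 5 of 11 positions shifted and means of 1.18 and 0.85.

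The lower run, from 37792322 to 37799460, had 3 of 4 positions shifted and a mean of -0.88 in plant 39, with 0.26, 0.14 and 0.050 in plants 15, 35 and 45. Its first position, Gm_CUST_P13260915, had Cy3 of 9.95 in plant 39 and 54.2, 51.3 and 36.1 in plants 15, 35 and 45, none of them well above background. The mixed run, from 37541829 to 37544988, had 2 lower positions and 1 higher one among 6, with a mean of -0.85 in plant 39. Allowing at most 2 unshifted positions gave 6 runs with 0 mixed, and allowing 10 gave 9 runs, of which 4 held both directions. With at most 5 unshifted positions between, the runs that held a lower position were 3.16 and 7.14 kb long.

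The ratio is made of a signal for each dye, and the dyes showed where the higher and the lower positions differed. At the 67 higher positions the median Cy3 signal of plant 39 was 1119, near the 1101 of the unshifted positions. The median Cy3 signal of plants 15, 35 and 45 at these positions was 171, 177 and 197, and that of Cy5 (M92-220), in the order of arrays 15, 39, 35 and 45, was 143, 184, 169 and 174. In the median the higher positions were dim in M92-220 and in plants 15, 35 and 45, and of ordinary brightness in plant 39. The positions were picked by ratios made of these signals, so this order is a description only. At 14 of them M92-220 was not well above background on any array, and at 17 none of plants 15, 35 and 45 was. Cy3 of plant 39 moved more than Cy5, relative to the medians of the other arrays, at 65 of the 67.

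At the 20 lower positions, picked by the same ratios, the order was the opposite and is likewise a description only. The median Cy3 signal was 132 in plant 39 and 589, 586 and 584 in plants 15, 35 and 45. Cy5 (M92-220), in the order of arrays 15, 39, 35 and 45, had medians of 539, 552, 525 and 538. At 8 of the 20, plant 39 gave no Cy3 signal well above background, and at 1 of these 8, Gm_CUST_P13260915, the other plants gave none either. M92-220 was dim on no more than 1 array at any of them, as Cy5 was well above background on all 4 arrays at 19. Cy3 moved more than Cy5 at all 20.

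**Figure D3:**
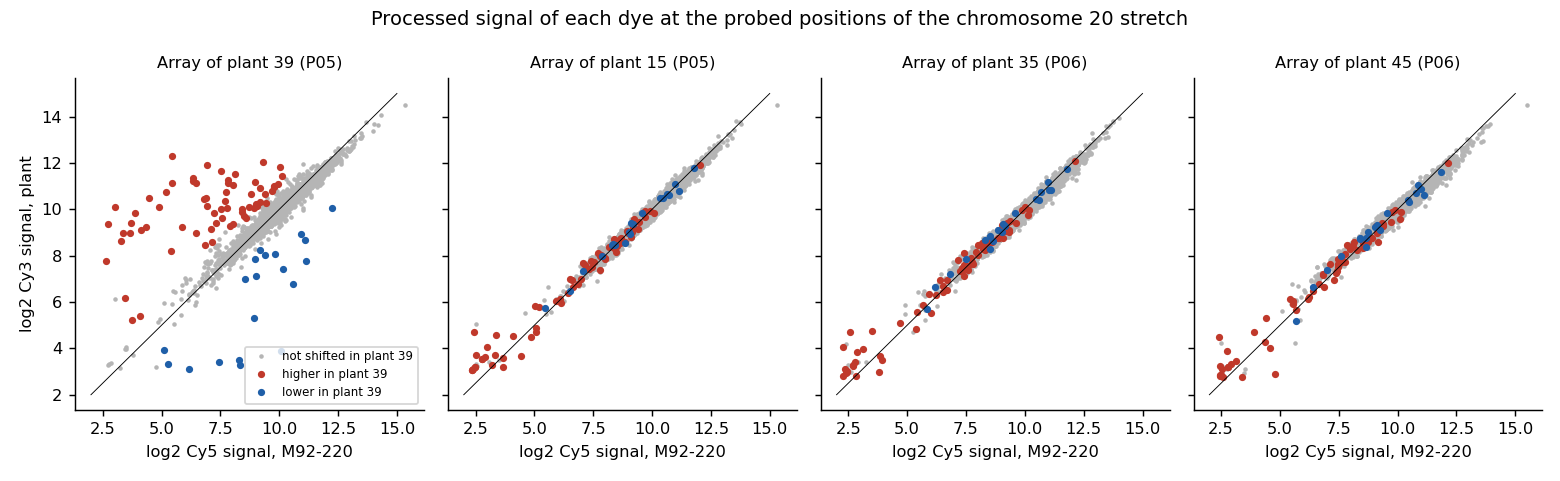
Log2 of the processed Cy3 signal of the plant (vertical axis) against log2 of the processed Cy5 signal of M92-220 (horizontal axis) at each probed position, with 1 panel per array and a line of equal signal. In the array of plant 39 the 67 higher positions lie above the line, with a median Cy3 of 1119 over a median Cy5 of 184, and the 20 lower ones below it, while the log2 ratios in the other panels all lie within 1 of 0 at 60 of the 67 and at all 20.

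The shifted positions were also divided by the size of the difference, which is made of the same signals, so the order of the dyes over these classes is a description only. The 31 higher positions that differed from the nearest other plant by 1 to 2 had a median Cy5 signal of 409, the 20 that differed by 2 to 4 had 105, and the 16 that differed by 4 or more had 8.80, where M92-220 was not well above background on any array at 10. Plant 39 had median Cy3 signals of 1079, 1430 and 1104 in these classes. Since a ratio is bounded by the background of the dimmer dye, the largest ratios are not measured sizes. For the lower positions, the median Cy3 signal of plant 39 was 234, 172 and 10.8 in the same classes of 9, 7 and 4 positions, with a median Cy5 signal of 456, 1338 and 331.

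On the array of plant 39, the Cy5 signal at the higher positions was itself somewhat raised. Cy5 was highest on the array of plant 39 at 38 of the 67 higher positions, and over the whole array at 425790 of 951298 probes. Among the 16 positions that differed by 4 or more, it was highest there at 13, with a median of 21.1 on that array and 8.03 on the other arrays. Both medians lie below 28.0, the dimmest Cy5 signal marked as well above background on the array of plant 39. The same M92-220 line was hybridized on every array. The part of this rise in the ratios was not tested.

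The 6 positions with the largest upward difference from the nearest other plant all lay in the second cluster. At Gm_CUST_P13261465, from 37887341 to 37887394, the log2 ratio was 6.85 in plant 39 and -0.074, -0.81 and -0.57 in plants 15, 35 and 45. The Cy3 signal was 4981 in plant 39 and 12.03, 7.95 and 16.0 in plants 15, 35 and 45, and Cy5, in the order of arrays 39, 15, 35 and 45, gave 43.2, 12.7, 13.97 and 23.9. Plant 39 was bright, the other plants were not well above background, and M92-220 was so only on the array of plant 39.

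At Gm_CUST_P13260155, from 37639882 to 37639941, the log2 ratio was 7.08 in plant 39 and 0.72, 0.75 and 0.41 in plants 15, 35 and 45. Cy3 was 1104 in plant 39 and 9.04, 8.70 and 7.27 in the other plants, and Cy5 was 8.18 on the array of plant 39. M92-220 was not well above background, so its signal has only an approximate bound: plant 39 was at least about 39.5-fold brighter than M92-220. The bound takes Cy5 as 28.0, the dimmest Cy5 signal that the array of plant 39 still resolved from background. By the same measure plant 39 was at least 23.7-fold brighter at Gm_CUST_P13260385 (37684250 to 37684309), at least 51.7-fold at Gm_CUST_P13261496 (37890295 to 37890351) and at least 33.0-fold at Gm_CUST_P13259602 (37530538 to 37530597). The log2 ratios of plant 39 there were 6.66, 6.05 and 5.98, and those of the other plants lay between 0.38 and 0.74.

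The remaining position, Gm_CUST_P13261484, from 37888971 to 37889030, was less even among the other plants. Its log2 ratio was 4.90 in plant 39, -0.45 in plant 15, -0.46 in plant 35 and -1.90 in plant 45. Cy3 was 2385 in plant 39 and 9.20, 11.1 and 7.47 in plants 15, 35 and 45, all not well above background. The ratios of the other plants are thus ratios of signals at background, since M92-220 was well above it only on the array of plant 39, with Cy5 of 80.4.

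Among the 6 positions with the largest downward difference, 2 lay in the first cluster and 4 in the second. The largest was at Gm_CUST_P13254720, from 36723392 to 36723451, with a log2 ratio of -6.17 in plant 39 and 0.044, 0.071 and -0.069 in plants 15, 35 and 45. Cy3 was 14.96 in plant 39 and 1616, 1743 and 1672 in the other plants. Cy5 was 1081 on the array of plant 39 and 1571, 1667 and 1765 on the others, so M92-220 was bright on all of them. Plant 39 was not above background there. With Cy3 taken as 42.2, the dimmest marked as well above background on its array, its signal was at least about 25.6-fold lower than that of M92-220. This bound is approximate too, as Gm_CUST_P13261461, with Cy3 of 72.1 in plant 39, was not so marked.

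Gm_CUST_P13254554, from 36691075 to 36691134, had a log2 ratio of -5.04 in plant 39 and 0.028, 0.35 and 0.33 in plants 15, 35 and 45. Its Cy3 signal of 9.80 in plant 39 gave an approximate bound of at least 7.65-fold lower than M92-220. At Gm_CUST_P13260140 (37635877 to 37635936) and Gm_CUST_P13260044 (37616212 to 37616271) the log2 ratios of plant 39 were -4.78 and -4.06 and the bounds at least 7.31-fold and at least 4.16-fold lower. M92-220 itself was only moderately bright at this pair, with Cy5 of 309 and 176 on the array of plant 39, which limits the bounds.

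The remaining pair kept a measurable signal in plant 39. At Gm_CUST_P13260002, from 37597428 to 37597481, Cy3 was 111 in plant 39 and 1446, 1344 and 1288 in plants 15, 35 and 45, with log2 ratios of -3.78, 0.028, -0.19 and -0.16. At Gm_CUST_P13260763, from 37763852 to 37763903, Cy3 was 215 in plant 39 and 2182, 2306 and 2153 in the other plants, with log2 ratios of -3.39, 0.13, 0.18 and 0.22. Plant 39 was well above background at both, so a signal remained.

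**Figure D4:**
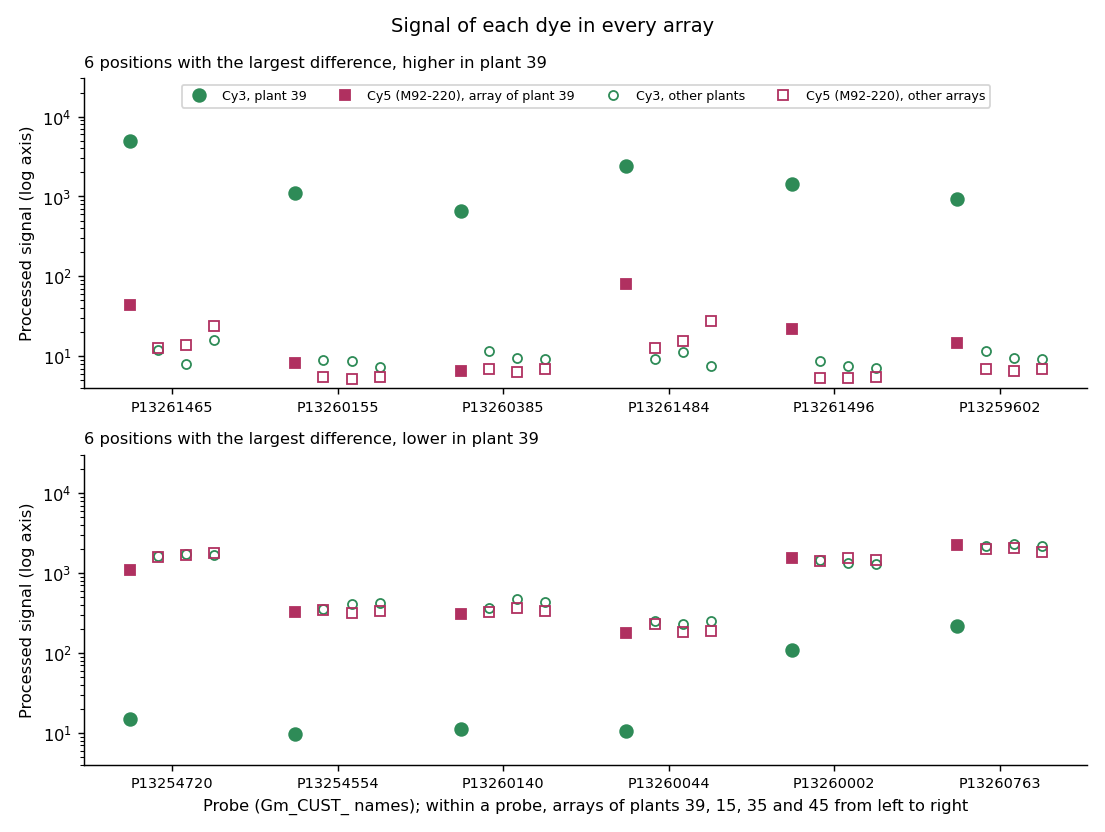
Processed signal (vertical axis, logarithmic) of Cy3 (plant, circles) and Cy5 (M92-220, squares) at the 6 positions with the largest upward and the 6 with the largest downward difference, with filled symbols for the array of plant 39. Above, only Cy3 of plant 39 is bright, and below, only Cy3 of plant 39 is reduced.

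At the outer ends of the shifted positions the differences were smaller. The first, Gm_CUST_P13254375 (36656550 to 36656609), stood at -1.89 in plant 39 and -0.11, 0.033 and 0.11 in plants 15, 35 and 45. The last, Gm_CUST_P13261882 (37951184 to 37951243), stood at -1.15 in plant 39 and 0.27, 0.40 and 0.39 in the other plants. Its Cy5 signal was 34.0 on the array of plant 39 and 135, 114 and 128 on those of plants 15, 35 and 45, so there both dyes were low on that array.

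At 2 of the 67 higher positions plant 39 had one of the dropouts described above. At Gm_CUST_P13254518 (36682094 to 36682153), the only higher position of the first cluster, Cy3 and Cy5 were 37.0 and 13.5 on the array of plant 39, while the arrays of plants 15, 35 and 45 gave Cy5 signals of 333, 315 and 275. At Gm_CUST_P13258362 (37315355 to 37315414), Cy3 and Cy5 were 41.7 and 16.8 on that array, against a Cy5 signal of 4151 to 4515 on the others. Without the dropouts there were 65 higher and 20 lower positions, and the first cluster held lower positions only.

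At nearly all of the shifted positions plant 39 departed from the reference and not only from the other plants. This largely follows from the rule for a shifted position where the other plants lay near 0. Its own log2 ratio was 1 or higher at 66 of the 67 higher positions and -1 or lower at 19 of the 20 lower ones. Plants 15, 35 and 45 all lay within 1 of 0 at 60 of the higher and at all 20 lower positions. Of the 20 positions of the stretch at which M92-220 was not well above background on any array, or 0.786% of its positions, plant 39 was higher at 14. Cy3 was well above background at those 20 positions in 14 cases for plant 39, 0 for plants 15 and 35 and 1 for plant 45. Over the rest of the array, 0.586% of the probes were dim in M92-220 in this sense, and at these 5564 probes Cy3 was well above background 72 times for plant 39, 68 times for plant 15, 101 times for plant 35 and 93 times for plant 45. These signals make up the ratios of plant 39 by which the interval was selected, so the contrast with the rest of the array is a description only.

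Other intervals in which plant 39 departed from the others differed in the mix of directions, and no test of that difference was run because each interval was chosen for its shifts. In 1 Mb of chromosome 7, 253 of 1781 positions were lower and 0 higher, all between 42193407 and 42352938, and up to 86 successive positions were shifted without a break. In the chromosome 20 stretch the longest unbroken succession was 10. From 45 to 46 Mb of chromosome 14, 43 of 1550 positions were lower and 3 higher, with at most 3 in succession. Lower positions made up 100% of the shifted ones on chromosome 7, 93.5% on chromosome 14 and 23.0% on chromosome 20. The rest of chromosome 20 had 20 higher and 13 lower positions among 41711.

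Of the 958 windows of 1 Mb on the array, 2 held at least 5 higher and at least 5 lower positions. One was the window from 37 to 38 Mb of chromosome 20, with 66 higher and 13 lower, and the other was that from 39 to 40 Mb of chromosome 2, chosen after its values were seen, with 8 of each. In the chromosome 2 window another plant lay beyond 1 from 0 at 13 of the 16 positions. The ratio of plant 39 itself was 1 or higher at 2 of its 8 higher positions and -1 or lower at 0 of its 8 lower ones, while on chromosome 20 it was so at 65 of the 66 and 12 of the 13.

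**Figure D5:**
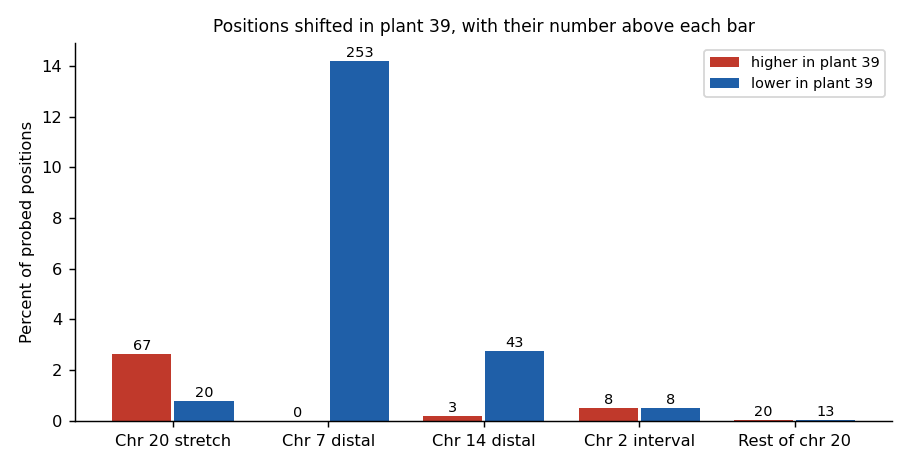
Percent of probed positions that were higher (red) or lower (blue) in plant 39 than in each other plant, with their number above each bar, in the chromosome 20 stretch, the chromosome 7, 14 and 2 intervals named in the text and the rest of chromosome 20. Higher positions outnumber lower ones in the stretch (67 and 20), and the chromosome 7 interval has 253 lower and 0 higher.

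The lines named by the labels were compared with M92-220 over all 951298 probes with a value on every array, with the treat test of limma. It asks whether a mean lies beyond 1 on the log2 scale, and calls were made where the Benjamini-Hochberg adjusted p fell under 0.05. In P06 the test called 0 positions of the stretch lower and 0 higher, where 0.0875% and 0.00841% of all probes were called. Before adjustment, treat gave p under 0.05 at 0 lower positions and 1 higher one (0.177% and 0.0379% of all probes), and limma's eBayes against 0, with a mean beyond 1, called 0 and 2 (0.215% and 0.0834%). In P05 treat called 0 lower and 1 higher, where 0.00463% and 0.00715% of all probes were called. It gave 0 and 13 unadjusted (0.0307% and 0.0476%), and eBayes called 1 and 21 (0.06% and 0.103%). For P06 minus P05 treat called 0 lower and 0 higher, where 0.0769% and 0.00021% of all probes were called. It gave 1 and 0 unadjusted (0.0922% and 0.00273%), and eBayes called 0 and 0 (0.0895% and 0.00231%). The shifts of plant 39 enter these tests as spread between plants of the same line, and the P05 mean holds the values on which the interval was selected. The tests measure only the spread of these ratios between arrays of 1 plant each. M92-220 is the reference in every ratio, so the spread between its own plants is not estimated. Without plant 15, plant 39 alone stood for P05 and was assumed to vary like the plants of P06. Treat then called 17 positions lower and 46 higher in P05 (0.0556% and 0.0498% of all probes), and 42 lower and 16 higher for P06 minus P05 (0.153% and 0.0477%). These counts restate the choice of the interval by plant 39.

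The position called in P05 was Gm_CUST_P13260292, from 37666070 to 37666129. M92-220 was not well above background there on any array, with Cy5 from 5.24 to 8.07, and among the plants only plant 39 was, with Cy3 of 69.8 against 33.6, 18.1 and 18.8 in plants 15, 35 and 45. Plants 15 and 39 had log2 ratios of 2.57 and 3.12, and plants 35 and 45 of 1.79 and 1.77, so 3 of the 4 ratios set a signal at background against another. The mean was 2.84 ± 0.39 (SD, n = 2 plants) in P05, with an adjusted p of 0.0109 (limma), and 1.78 ± 0.018 (SD, n = 2 plants) in P06, with an adjusted p of 0.178 (limma). With Cy5 raised to the dimmest signal marked as well above background on each array, the P05 mean came to 1.79-fold over M92-220. Plant 15 was itself not well above background, so this is not a bound, and no fold can be given for P05 or P06. The value lies below the 2-fold limit of the test, and under normexp the position was not called. The only other position of the stretch with a ratio of 1 or higher in all 4 plants was Gm_CUST_P13261479, from 37888165 to 37888224, with 1.10, 5.59, 1.77 and 2.12 in plants 15, 39, 35 and 45. M92-220 was not well above background there on any array, and of the plants only plant 39 was.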

How the data were processed

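Genomic DNA of 4 plants was measured on 2-color Agilent arrays, 1 plant per array. The authors deposited the Agilent Feature Extraction 12.0.0.7 output of each array, in which the processed intensity of each dye was background-subtracted, detrended and dye-normalized by that software per the file headers, with flags that mark spots well above background, non-uniform or outlying. The deposited log10 ratio of that output is red over green and gave only its error. A second deposited table holds log2 ratios processed by the authors. Each of its columns equalled the plant over M92-220 ratio plus a constant, between -0.0180 and -0.0426, with a tolerance of 0.01, for at least 99.98% of probes. It was used as an alternative. Its column medians were -0.0235, -0.0242, -0.0488 and -0.0509 for plants 15, 39, 35 and 45, and how it was centered is not given in the sources used here. Columns that matched no plant numbered 0. The methods name ADM-2 for aberrations, and no such calls were used.

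Control spots and the 210 to 861 marked spots per array were left out, spots of a probe were averaged, and log2(Cy3/Cy5) was centered on the median of each array, with no loess or quantile step. Of the probes, 8054 listed on Chr014 were taken as chromosome 14. Shifted positions, runs, clusters and windows were computed in Python 3.11.15 with numpy 2.4.6 and pandas 2.3.3. For the lines, limma 3.58.1 (R 4.3.3) fitted a mean per line over all arrays with lmFit, followed by treat, and the steps were tested on simulated data. The number of arrays limits the precision, and an SD over 2 plants is a weak estimate.

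The text names the 6 positions with the largest difference from the nearest other plant in each direction. It also names the first and last shifted position of the stretch and the position called by treat on all arrays. The runs are given by the coordinates of their first and last shifted positions. Positions just inside and outside the threshold of 1 are given by their differences only. Positions at 1 or higher in all plants and those with dropouts were named after their values were seen. The members and lists were chosen with earlier results of these data known. Alternatives were no centering, normexp with an offset of 50 (on median signals, as mean signals were not in the files), the table of log2 ratios, marked spots kept, other thresholds, only positions with Cy5 well above background, eBayes, only the arrays of a line and leaving out each plant. Leaving out the Cy5 dropouts, and the chromosome 2 window, were chosen after seeing the data. Probe sequences and gene models of this build were not used here, so no sequence, base composition or gene is given.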

Additional observations from a re-analysis of the deposited data

How the results depend on the processing

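Of 92 values of 9 results under the alternatives, 72 stayed within set limits, 20 moved and 0 reversed. The limit was 1.5 times for a count. For the spread it was a change of 0.0113, the SD among the spreads of plants 15, 35 and 45 in the stretch. For plant 39, a difference of at least 2 gave 36 higher and 11 lower positions, and one of at least 0.5 gave 123 and 46. Normexp left 66 higher but 12 lower positions, with an SD of 0.456 in place of 0.637. The SD was 0.562 in the table of processed ratios and 0.481 at positions with Cy5 well above background on all arrays, where 47 higher and 19 lower positions remained. Leaving out each of plants 15, 35 and 45 in turn gave 69 to 72 higher and 20 to 22 lower positions and an SD of 0.632 to 0.637.

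In limma, eBayes called 2 positions higher in P06, and 1 lower and 21 higher in P05. Treat on the arrays of P06 alone called 2 higher, and normexp left 0 higher in P05. Leaving out each plant in turn, treat called 0 to 2 higher in P06, 0 to 17 lower and 1 to 46 higher in P05, and 0 to 42 lower and 0 to 16 higher for P06 minus P05. The highest of these for P05 and for P06 minus P05 came without plant 15, when the spread of P05 is taken from P06. Over all probes, treat then called 529 lower and 474 higher in P05, and 1451 lower and 454 higher for P06 minus P05, of 951323. Apart from what these settings are by construction, the cause was not tested. No paired analysis was possible because no plant number occurs in both lines. Ratios with a dye not well above background are limited by that background and have at most an approximate bound.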

Other observations

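The shifted positions were spread over the surface of the array of plant 39. With the slide divided at its middle row and column, 15, 31, 18 and 23 of the 87 shifted positions lay in the lower left, lower right, upper left and upper right, where 637, 633, 627 and 652 of the positions of the stretch lay.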
